A study of Mus musculus with 12 samples.

Results

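The genes described here are 52 modifiers and remodelers of chromatin, listed by name with earlier results of these data known. The list holds histone methyltransferases, demethylases and acetyltransferases, and ATP-dependent nucleosome remodelers with 3 ARID subunits of the SWI/SNF complexes. It also holds the enzymes that write and oxidise DNA methylation. These genes make up 52 of the 55487 gene rows in each of the tables of mouse cerebral cortex and hippocampus. All 52 passed the filter on low values in both tissues. RNA sequencing of total RNA compared C57BL/6 mice of the genotype mTert KO (G1), called KO here, with mTert WT mice of the same strain, and each of the 4 groups, KO hippocampus, WT hippocampus, KO cortex and WT cortex, has 3 libraries. Tert encodes the catalytic subunit of telomerase. No label ties a library to an animal, so p-values measure only the spread among these libraries, and that spread may be technical. The sources used here give no age for the mice. In bulk tissue, fewer cells of a type and less RNA per cell cannot be told apart.

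Tert itself was at 0, 6.31 and 0 normalized counts in KO hippocampus, against 147, 184 and 128 in WT hippocampus, and at 0 in all KO cortex libraries, against 206, 105 and 241 in WT cortex. Library totals ran from 68424934 to 86639113 reads, which leaves little counting error for genes at the levels described here. Cortex WT library 2 stood apart from the other WT cortex libraries: per gene, the chi-square was 102 against library 1 and 93.9 against library 3, while libraries 1 and 3 gave 9.54, so the main cortex results are given with and without it. In hippocampus the largest such value was 48.8, between WT libraries 1 and 2. Values are normalized counts, fold changes are log2 of KO over WT ± SE, means are ± SD with n = 3, and a gene was called changed at a Benjamini-Hochberg adjusted p below 0.05 in limma over all genes tested.

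DNA in the nucleus is wound around histones, and enzymes that add or remove methyl and acetyl groups on histone tails mark promoters, enhancers and silent regions. Remodelers use ATP to slide, evict or exchange nucleosomes, and DNA methyltransferases and TET dioxygenases set and oxidise methylation of cytosine. In the brain many of these genes are known from neurodevelopmental disorders: mutations of human KMT2D cause Kabuki syndrome, of CHD7 CHARGE syndrome, of NSD1 Sotos syndrome, of CREBBP Rubinstein-Taybi syndrome and of SRCAP Floating-Harbor syndrome. Most of the encoded proteins are very large, and so are the transcripts.

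In hippocampus 34 of the 52 genes fell in the KO libraries, 1 rose and 17 were not called. Among all 22337 genes tested there, 29.2% were called, 15.1% lower and 14.1% higher. The list was drawn up with earlier results of these data known, so this contrast describes the list and does not test it. The median log2 fold change of the chromatin genes was -0.34, beside 0.02 over all genes. The KO libraries lay wholly below the WT libraries for 36 of the 52 genes, as they did for 21.5% of all genes, and wholly above them for 4, beside 24.3% of all genes, while the groups overlapped for the other 12. With each hippocampus library left out in turn 30 to 35 genes fell, and 1 rose, or 5 without WT library 2. In cortex 0 of the 52 genes were called by limma with all libraries, where 1.94% of 21945 genes were, 1.28% higher and 0.661% lower. At an unadjusted p below 0.05, 5 of them were lower and 3 higher in KO cortex (24 and 9 without WT library 2). The share of all genes below that unadjusted threshold was not computed, so these counts cannot be set against it. After adjustment, edgeR on the recovered reads called 1 of the 52 lower, Chd9. The KO libraries of cortex lay below all WT libraries for 4 of the 52 genes and above them for 13, beside 12.2% and 16% of all genes. With WT libraries 1 and 3 alone they lay below for 29 and above for 13, beside 24.8% and 25% of all genes. Without cortex WT library 2, 22 fell and 7 rose, where 10.4% of genes tested were called lower and 11% higher.

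**Figure D1:**
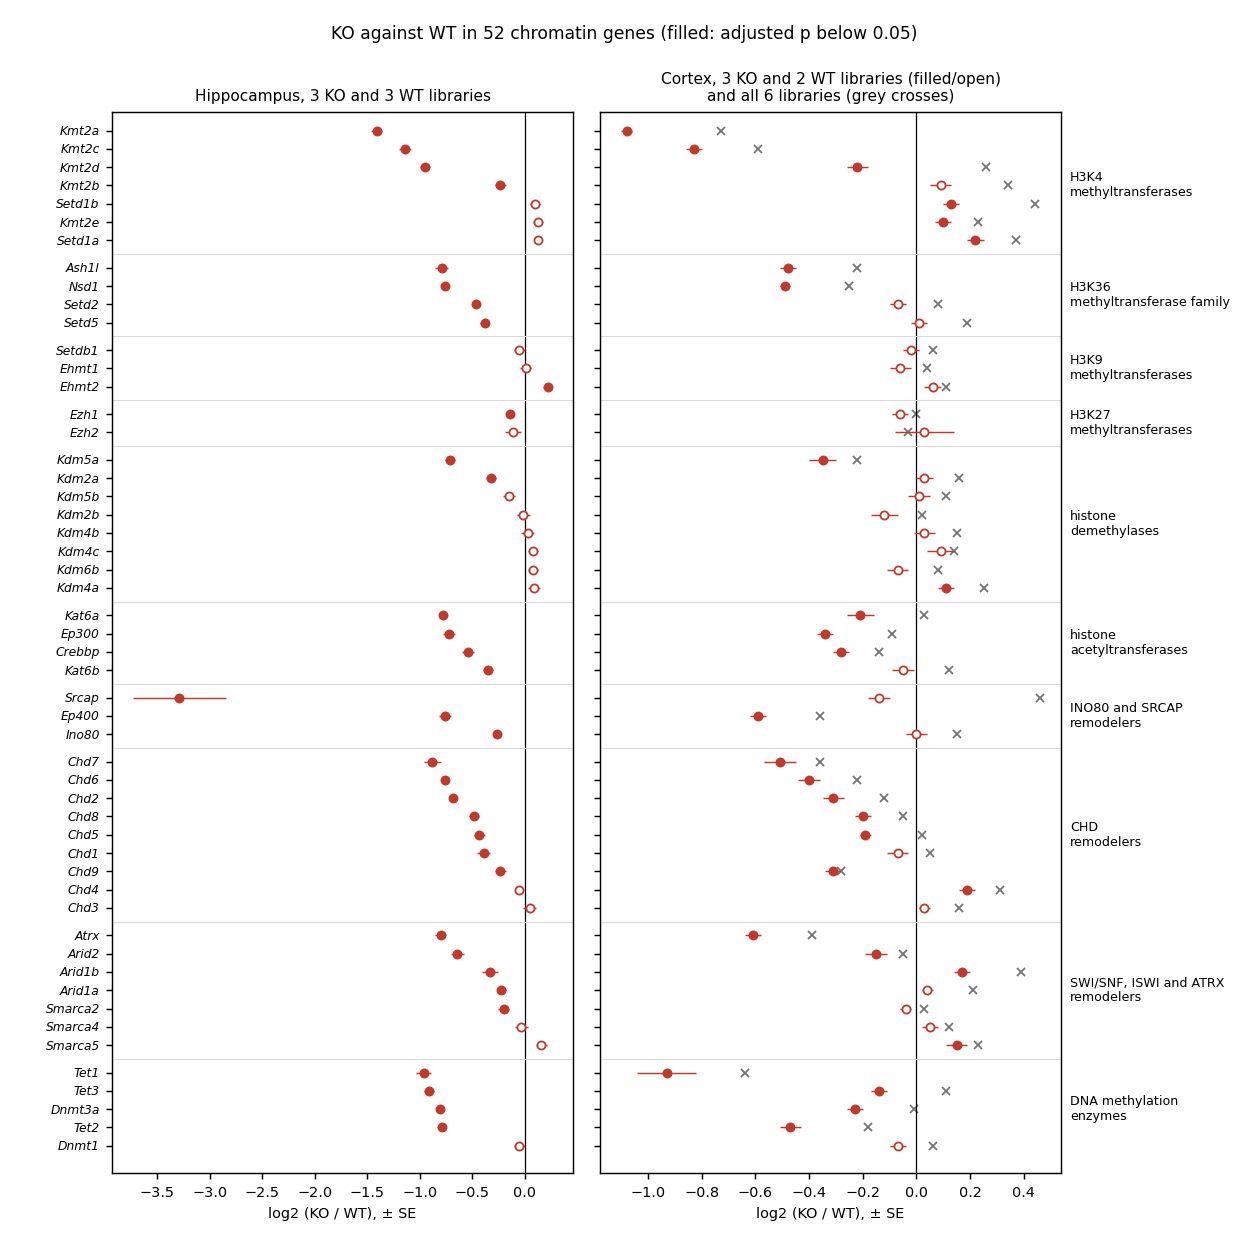
Log2 fold change of KO over WT (x axis, ± SE) of the 52 chromatin genes, grouped by role, in hippocampus and in cortex without WT library 2, with filled points called at an adjusted p below 0.05 and grey crosses for cortex with all 6 libraries. In hippocampus Srcap, at -3.29, lies far to the left of the other genes, which run from -1.41 for Kmt2a to 0.22 for Ehmt2.

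RefSeq promoter windows, 250 bases before to 50 after the annotated start in GRCm38.p6, were matched by symbol for 37 of the 52 genes, in 51 windows. Those of the 4 genes with the largest falls in hippocampus and of the 1 gene that rose are shown, so that the regulatory sequence can be read beside the values. Capitals mark a GC box (GGGCGG, bound by Sp and KLF factors) or an E-box (CACGTG, bound by Myc and USF factors) on either strand, and each sequence runs 5′ to 3′ along the gene. The Tet1 window is at a RefSeq start 21672 bases inside the gene model whose span is given here.
Srcap, chr7:127511733-127512032, plus strand: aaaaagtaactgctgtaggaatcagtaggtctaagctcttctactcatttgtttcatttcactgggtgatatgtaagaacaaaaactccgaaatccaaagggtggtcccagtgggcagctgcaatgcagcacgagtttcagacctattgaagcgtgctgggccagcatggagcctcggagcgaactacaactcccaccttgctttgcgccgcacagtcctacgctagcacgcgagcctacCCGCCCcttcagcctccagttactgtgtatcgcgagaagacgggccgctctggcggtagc
Kmt2a, chr9:44881240-44881539, minus strand: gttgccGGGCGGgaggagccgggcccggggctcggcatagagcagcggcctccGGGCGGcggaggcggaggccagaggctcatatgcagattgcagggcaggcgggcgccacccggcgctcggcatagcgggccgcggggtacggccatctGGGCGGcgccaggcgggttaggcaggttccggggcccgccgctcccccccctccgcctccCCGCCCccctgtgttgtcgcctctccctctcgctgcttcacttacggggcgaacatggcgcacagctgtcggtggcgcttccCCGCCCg
Kmt2c, chr5:25498734-25499033, minus strand: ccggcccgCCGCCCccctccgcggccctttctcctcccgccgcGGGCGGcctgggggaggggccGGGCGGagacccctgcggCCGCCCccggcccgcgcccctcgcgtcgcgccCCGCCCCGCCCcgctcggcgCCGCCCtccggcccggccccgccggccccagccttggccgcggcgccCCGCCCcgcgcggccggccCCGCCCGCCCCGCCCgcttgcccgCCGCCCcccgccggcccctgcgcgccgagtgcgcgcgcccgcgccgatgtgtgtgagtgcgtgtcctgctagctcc
Tet1, chr10:62887275-62887574, minus strand: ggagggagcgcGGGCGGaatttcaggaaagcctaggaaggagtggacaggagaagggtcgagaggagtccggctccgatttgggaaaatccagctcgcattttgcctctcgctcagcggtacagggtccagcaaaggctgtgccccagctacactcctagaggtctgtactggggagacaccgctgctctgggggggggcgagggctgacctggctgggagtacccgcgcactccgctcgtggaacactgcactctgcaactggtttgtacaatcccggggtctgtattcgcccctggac
Ehmt2 first window, chr17:34898224-34898523, plus strand: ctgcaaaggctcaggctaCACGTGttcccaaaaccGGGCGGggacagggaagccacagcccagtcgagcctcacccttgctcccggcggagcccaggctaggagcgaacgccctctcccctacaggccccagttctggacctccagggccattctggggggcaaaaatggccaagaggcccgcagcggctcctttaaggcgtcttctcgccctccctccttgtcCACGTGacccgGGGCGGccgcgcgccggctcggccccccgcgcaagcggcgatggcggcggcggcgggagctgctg
Ehmt2 second window, chr17:34898720-34899019, plus strand: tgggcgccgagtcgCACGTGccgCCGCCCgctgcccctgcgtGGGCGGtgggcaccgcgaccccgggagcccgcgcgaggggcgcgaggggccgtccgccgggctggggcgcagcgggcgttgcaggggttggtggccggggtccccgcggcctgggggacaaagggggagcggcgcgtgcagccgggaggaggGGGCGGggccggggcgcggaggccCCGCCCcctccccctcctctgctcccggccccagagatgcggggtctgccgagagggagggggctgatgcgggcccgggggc
The Kmt2c window holds 12 GC boxes, some overlapping each other, at 88% G and C, the Kmt2a window 5 at 75.7%, and the Srcap and Tet1 windows 1 each at 53.3% and 61.7%. Ehmt2 has 2 GC boxes and 2 E-boxes in its first window and 4 and 1 in its second. Over the 51 windows of the chromatin genes 78.4% held at least 1 GC box, beside 35.7% of all 32851 windows, and 7.84% held an E-box, beside 7.15%. A TATA box (TATAAA) was in 0 of the 51 windows and in 13.6% of all windows, an ETS site (CCGGAAG) in 5.88% beside 8.86%, a CCAAT box (CCAAT) in 27.5% beside 37.4%, and an NRF1 site, the palindromic core motif of that factor, in 3.92% beside 0.971%, all searched on both strands with overlapping matches counted. The 3.92% for NRF1 was 2 windows of 1 gene. The 51 windows had a median of 69.7% G and C, beside 52.7% over all windows. Over the 30 windows of the 24 matched genes that fell in hippocampus the median was 71.2%. Over the 19 windows of the 12 matched genes not called there it was 64.3%. The set of all windows, of 27025 genes, was not filtered for expression or gene type. The shares are therefore not a comparison with other expressed protein-coding genes. These matches describe letters in the windows only.

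Srcap, the ATPase of the complex that exchanges histone H2A for H2A.Z (ENSMUSG00000053877, chromosome 7, 127511983 to 127561219, plus strand, GRCm38), had the largest fall. It had 2321, 1854 and 602 normalized counts in KO hippocampus, against 14080, 14450 and 11872 in WT hippocampus. The groups were far apart, with KO library 3 lowest, and the fold change was -3.29 ± 0.44 (adjusted p = 0.00162). A second protein-coding gene model, Gm42715, lies on the same strand (chromosome 7, 127519584 to 127567054) and shares 9738 of the 15783 exonic bases of Srcap, and the sources used here do not give how reads in shared exons were assigned. Gm42715 moved the other way, with 11098, 11329 and 12227 in KO hippocampus, against 5780, 7445 and 8784 in WT hippocampus, and rose by 0.67 ± 0.13 (adjusted p = 0.00896). With both rows summed, the locus had 13418, 13183 and 12830 in KO hippocampus and 19860, 21895 and 20656 in WT hippocampus. The summed groups were also apart, with far less spread among the KO libraries, and their fold change was -0.66 ± 0.05 (adjusted p = 8.1e-05). Over 16 alternatives the Srcap row alone ran from -3.66 to -2.69 (adjusted p from 0.000273 to 0.0157). The value of the locus as a whole lay within the range of the other genes over 12 kb, and the size of the change in the Srcap row alone is uncertain.

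Of the 7 genes of the H3K4 methyltransferase family, which mark promoters and enhancers, 4 fell and 3 were not called, with a median of -0.23. Kmt2a, also known as MLL1 (ENSMUSG00000002028, chromosome 9, 44803355 to 44881296, minus strand), had 8860, 8907 and 8659 in KO hippocampus, against 21641, 24811 and 23667 in WT hippocampus. The KO libraries lay close together at 37.7% of the WT mean, a fold change of -1.41 ± 0.05 (adjusted p = 1.62e-05). Kmt2c and Kmt2d, which encode the enhancer-associated MLL3 and MLL4, followed: Kmt2c had 5784, 5348 and 5797 in KO hippocampus, against 12044, 13344 and 12010 in WT hippocampus, and Kmt2d fell by 0.95 ± 0.05 on the log2 scale. Kmt2b, the closest relative of Kmt2a, fell by 0.23 ± 0.05 (adjusted p = 0.0083). Setd1a and Setd1b, the catalytic subunits of the SET1 complexes, and Kmt2e, a family member that lacks clear methyltransferase activity, were between 0.10 and 0.13 and were not called, although the KO libraries of Setd1a and Kmt2e were all above the WT libraries. The Setd1a row also shares 3523 of its 6795 exonic bases with the gene model Gm49388, which had 0, 713 and 0 in KO hippocampus and 0, 0 and 128 in WT hippocampus.

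All 4 genes of the H3K36 methyltransferase family fell, with a median of -0.61. Ash1l fell by 0.79 ± 0.06 and Nsd1 by 0.76 ± 0.04, Nsd1 with 9404, 9472 and 9657 in KO hippocampus, against 15403, 16708 and 16111 in WT hippocampus. Setd2, which places trimethylation over transcribed bodies, and Setd5 had smaller changes, -0.46 and -0.38. The 5 genes for writers of the repressive H3K9 and H3K27 marks lay between -0.14 and 0.22. They have 5.49 to 8.12 kb of exons, against 10.8 to 18.3 kb in the H3K36 family. Differences from the median of other protein-coding genes of the same class of exonic length were -0.11 to 0.17 for these 5. For the H3K36 family they were -0.33 to 0.08. Ehmt2, the H3K9 methyltransferase G9a (ENSMUSG00000013787, chromosome 17, 34898469 to 34914052, plus strand), was the only one of the 52 to rise: it had 19526, 19841 and 19682 in KO hippocampus, against 16389, 17567 and 16853 in WT hippocampus. Its groups were apart and its fold change was 0.22 ± 0.04 (adjusted p = 0.00614). Its partner Ehmt1 and Setdb1, which methylates H3K9 at retroelements, were at 0.01 and -0.05 with overlapping groups. Of the catalytic subunits of Polycomb repressive complex 2, Ezh1 fell by 0.14 ± 0.04 (adjusted p = 0.0486), a call lost in 9 of 17 alternatives, and Ezh2 was at -0.11 ± 0.08 and not called.

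Among the 8 histone demethylases 2 fell, and the median was 0.01. Kdm5a, which removes H3K4 methylation, had 2661, 2440 and 2562 in KO hippocampus, against 3932, 4341 and 4257 in WT hippocampus, a fold change of -0.71 ± 0.05, and Kdm2a fell by 0.32 ± 0.05. Kdm5b, Kdm2b, Kdm4a, Kdm4b, Kdm4c and Kdm6b lay between -0.15 and 0.09 and were not called. The 4 acetyltransferases all fell, with a median of -0.63. Kat6a, also known as MOZ (chromosome 8, 22859535 to 22943259, plus strand), had 4188, 4236 and 4214 in KO hippocampus, against 6974, 7576 and 7097 in WT hippocampus. It fell by 0.78 ± 0.04 on the log2 scale, with 9.18 kb of exons. Ep300 and Crebbp, the coactivator pair p300 and CBP, fell by 0.72 ± 0.06 and 0.54 ± 0.06, and Kat6b by 0.35 ± 0.05.

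Among the remodelers, Ep400 fell by 0.76 ± 0.06 and Ino80 by 0.26 ± 0.04, so that all 3 ATPases of the INO80 and SRCAP group fell. Of the 9 CHD remodelers 7 fell, with a median of -0.43. Chd7 had 1655, 1476 and 1699 in KO hippocampus, against 2745, 3241 and 2914 in WT hippocampus, a fold change of -0.88 ± 0.08. Chd6 fell by 0.76 ± 0.03, Chd2 by 0.68 ± 0.04 and Chd8, a gene tied to autism in humans, by 0.48 ± 0.05. Chd5, Chd1 and Chd9 fell by 0.43, 0.39 and 0.23. Chd3 and Chd4, the main ATPases of the NuRD complex, were not called, at 0.05 and -0.05, and Chd3 had the highest level per kilobase of exon of the 52 genes, 9154 normalized counts per kb in KO hippocampus and 8829 in WT hippocampus. Atrx, which deposits histone H3.3 with DAXX at telomeres and other repeats, had 7429, 7495 and 8208 in KO hippocampus, against 13085, 13899 and 13386 in WT hippocampus. Its fold change was -0.80 ± 0.05, the largest of the 7 SWI/SNF, ISWI and ATRX genes, of which 5 fell. The ARID subunits Arid2, Arid1b and Arid1a fell by 0.64, 0.33 and 0.22, the ATPase Smarca2 fell by 0.20 ± 0.05, its paralog Smarca4, or BRG1, was at -0.03 with overlapping groups, and the ISWI ATPase Smarca5 was at 0.16 ± 0.05 (adjusted p = 0.0526).

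The enzymes of DNA methylation had the lowest median of the 10 role groups, -0.81, and the 3 TET genes and Dnmt3a fell while Dnmt1 was not called. The 4 that fell have 15.5 to 16.9 kb of exons, and Dnmt1 has 7.38 kb. Their differences from the median of other protein-coding genes over 12 kb were -0.50 to -0.33 for the 4 that fell. Tet1 (chromosome 10, 62804570 to 62908996, minus strand) had the lowest level of the 52 genes, 34.5 normalized counts per kb of exon in KO hippocampus and 66.9 in WT hippocampus. It had 527, 495 and 577 in KO hippocampus, against 1037, 1070 and 994 in WT hippocampus. Its fold change was -0.96 ± 0.07, that of Tet3 -0.91 ± 0.05 and that of Tet2 -0.79 ± 0.04. Dnmt3a, the main de novo methyltransferase of neurons (ENSMUSG00000020661, chromosome 12, 3806007 to 3914443, plus strand), had 4826, 4914 and 4823 in KO hippocampus, against 8529, 8663 and 8427 in WT hippocampus. Both groups were tight and apart, with a fold change of -0.81 ± 0.03 (adjusted p = 1.75e-05). Dnmt1, which copies methylation after replication, had 4080, 4111 and 3985 in KO hippocampus and 4078, 4451 and 4059 in WT hippocampus, and these groups overlapped.

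**Figure D2:**
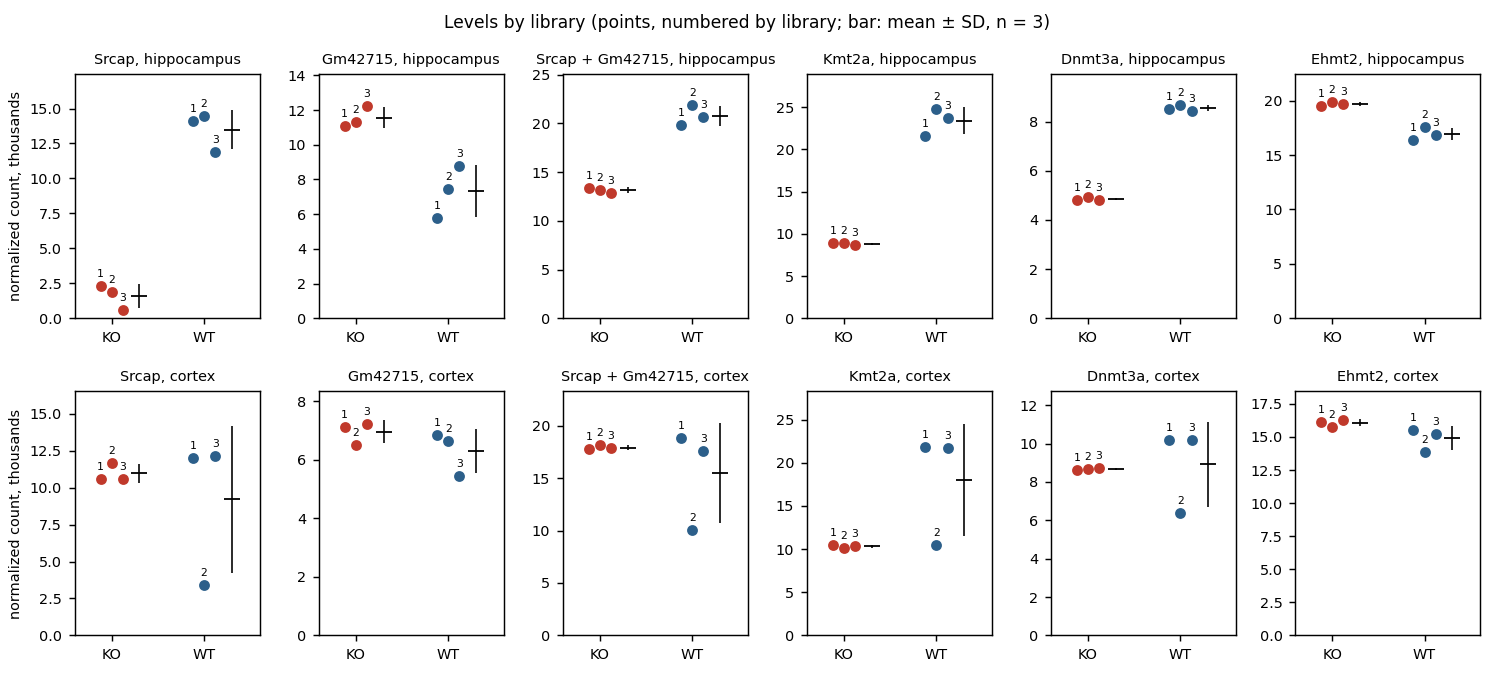
Normalized counts (y axis, from 0, scaled as its label says) of Srcap, the overlapping model Gm42715, their sum, Kmt2a, Dnmt3a and Ehmt2 in each KO and WT library of hippocampus (top) and cortex (bottom), with library numbers beside the points and mean ± SD. In hippocampus every KO library is below every WT library for Srcap, the sum, Kmt2a and Dnmt3a, and in cortex WT library 2 is lower than the other WT libraries for these same 4 panels and for Ehmt2.

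The fall was graded along transcript length. Merged exonic length, which joins every annotated exon and counts each base once, had a median of 12.3 kb in the 52 genes (4.89 to 23.1 kb), against 4.29 kb in 15915 other protein-coding genes tested in hippocampus. Of the 27 chromatin genes over 12 kb, 25 fell, or 92.6%, with a median of -0.76, against 589 of 838 other protein-coding genes of that class, or 70.3%, with a median of -0.46. Between 8 and 12 kb 7 of 12 fell, with a median of -0.22, against 40.9% of the other genes, with a median of -0.16. Between 6 and 8 kb 2 of 9 fell, at a median of -0.05, against 19.2% and -0.03 in the other genes, and between 4 and 6 kb 0 of 4 fell, at a median of 0.09, against 7.32% and 0.06. Across the 52 genes, which share the 6 libraries, Spearman's rho between fold change and exonic length was -0.74, against -0.26 across the other protein-coding genes, a description across genes that are not independent.

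**Figure D3:**
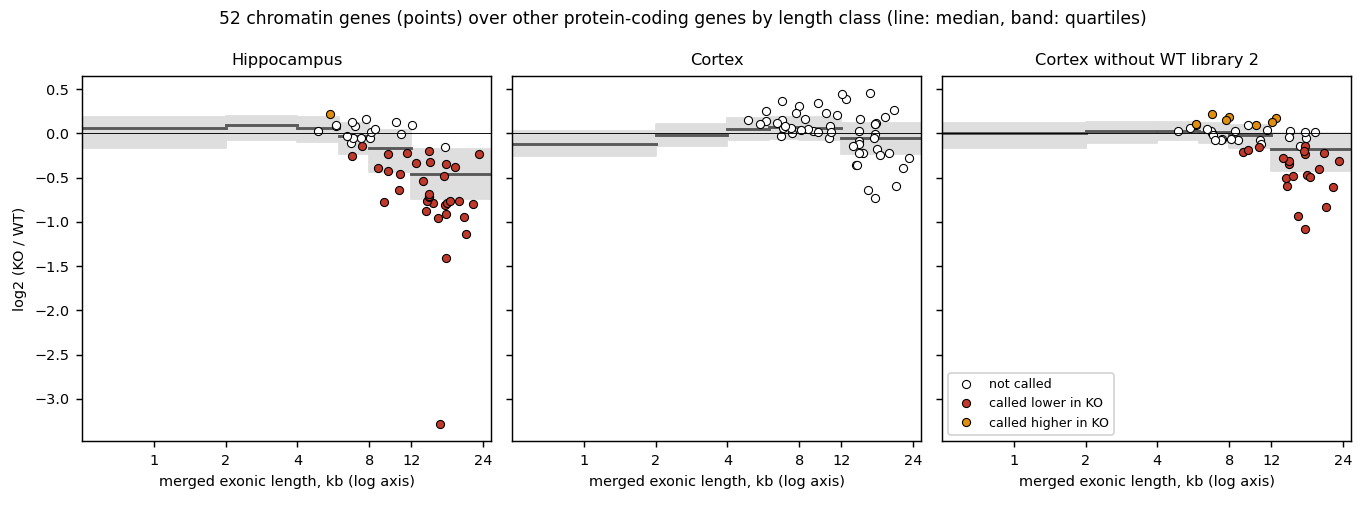
Log2 fold change of KO over WT (y axis) of the 52 chromatin genes (points, filled where called) against merged exonic length (log x axis) in hippocampus, cortex and cortex without WT library 2, over the median (line) and quartiles (band) of other protein-coding genes in each length class, with the outer classes drawn to the edge of the axis. In hippocampus the median of the other genes drops to -0.46 over 12 kb, and most chromatin genes of that class lie at or below it.

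Set against other protein-coding genes of the same class, 33 of the 52 genes were below the class median and 19 above it, and the median of these differences was -0.08. With the 200 other genes nearest in exonic length the split was 30 and 22, with a median of -0.07. Kmt2a lay 0.95 below its class, Kmt2c 0.69, Kat6a 0.62 and the Srcap row 2.83 (0.20 for the summed locus), and these 4 were the ones more than 0.5 below. Against classes of coding length the split was 28 below and 24 above, with a median of -0.03. The 4 genes more than 0.5 below were then the Srcap row, Dnmt3a at -0.79, Kmt2a at -0.72 and Tet3 at -0.60, while Kmt2c was at -0.24 and Kat6a at -0.25. Of 200 other genes nearest in length to Kmt2a, 4 had a more negative fold change, and for Kat6a the number was 14. At the other end Setd1b, with 12.1 kb of exons, lay 0.56 above its class, Kdm5b 0.30, Kmt2e 0.29 and Chd9, which has the longest exons of the 52 genes, 0.22. The numbers for Setd1b depend on its place just above the edge of its class, and against the 200 genes nearest in length it was 0.43 above.

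With the trend along exonic length removed from each library, 24 genes still fell and their median over all 52 was -0.06. Kmt2a was then at -0.93, Kat6a at -0.62, Kmt2c at -0.57, Tet1 at -0.52 and Chd7 at -0.50, each with an adjusted p of 0.00188 or less, and 13.1% of all genes were called lower and 11.4% higher. Kmt2b, Ezh1, Kdm2a, Chd8, Arid1a and Arid1b were no longer called, and Setd5, Kat6b, Chd9 and Smarca2 were called higher, as were Ehmt2 and 7 genes not called before, Kmt2e, Setd1a, Setd1b, Kdm2b, Kdm5b, Chd3 and Smarca5, 12 in all. Within the 27 genes over 12 kb the fold change went with coding length (rho -0.54) more than with exonic length (-0.30), and its rho with exonic bases outside the coding sequence was 0.34. In the 838 other genes over 12 kb the 3 values were -0.47, -0.20 and 0.25.

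In cortex with all libraries the median of the 52 genes was 0.05, and the 3 with the smallest p were Chd9 at -0.28 ± 0.06, Kmt2c at -0.59 ± 0.19 and Setd1a at 0.37 ± 0.12 (adjusted p = 0.0681, 0.171 and 0.175). Chd9 had 8340, 8090 and 8067 in KO cortex, against 9894, 9440 and 10388 in WT cortex. Kmt2c had 5236, 5078 and 5154 in KO cortex, against 9361, 5529 and 8996 in WT cortex. In both genes the KO libraries were below every WT library, but for Kmt2c WT library 2 lay near the KO libraries. That library was below both other WT libraries for 51 of the 52 genes and below every KO library for 45 of them. No share of all genes was computed for these counts. Of 839 other protein-coding genes over 12 kb, 792 were lower in that library than in the mean of WT libraries 1 and 3. Their median relative to that mean was -0.45 there, and -0.17, -0.16 and -0.18 in the KO libraries. Relative to the mean of WT libraries 1 and 3, the median over the 27 genes longer than 12 kb was -0.28, -0.27 and -0.32 in the KO libraries and -0.66 in WT library 2, while over the shorter genes it was within 0.01 of 0 in each KO library and -0.38 in WT library 2.

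**Figure D4:**
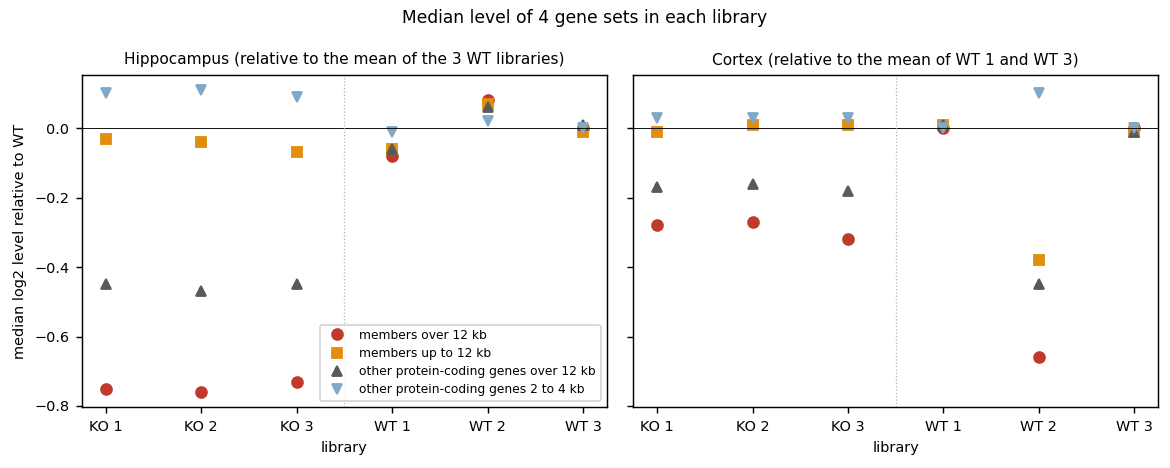
Median log2 level (y axis) of 4 gene sets in each library, relative to the mean of the 3 WT libraries in hippocampus and of WT libraries 1 and 3 in cortex. The chromatin genes over 12 kb sit at -0.75, -0.76 and -0.73 in the KO hippocampus libraries and at -0.66 in cortex WT library 2.

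Without WT library 2 the cortex pattern resembled hippocampus at smaller sizes. The 22 genes that fell then were all among the 34 that fell in hippocampus, and Spearman's rho between the fold changes of both tissues over the 52 genes was 0.82, against 0.56 with all libraries, a description over genes that share the libraries. Between the hippocampus fold change and the log2 ratio of cortex WT library 2 to WT libraries 1 and 3 it was 0.68. Kmt2a was at -1.08 ± 0.02 (adjusted p = 7.38e-07), with 10434, 10161 and 10314 in KO cortex, against 21863, 10493 and 21653 in WT cortex. Its KO libraries were about level with WT library 2 and far below WT libraries 1 and 3. Tet1, Kmt2c and Atrx were at -0.93 ± 0.11, -0.83 ± 0.03 and -0.61 ± 0.03, and Ep400, Chd7, Nsd1, Ash1l and Tet2 between -0.59 and -0.47. The 7 genes that rose were Setd1a, Chd4, Arid1b, Smarca5, Setd1b, Kdm4a and Kmt2e, from 0.22 for Setd1a to 0.10 for Kmt2e. Of these Arid1b fell in hippocampus and the others were not called there. Gm49388, which shares exonic bases with Setd1a, had 245, 0 and 0 in KO cortex, against 0, 0 and 799 in WT cortex. The size of the Setd1a change in cortex is therefore uncertain, with or without WT library 2. Of the 27 genes over 12 kb 19 fell and 2 rose, and their median was -0.31, against 50.6% lower, 8.47% higher and a median of -0.18 in the 838 other protein-coding genes. With the length trend also removed, 16 fell and 13 rose, beside 9.98% and 10.6% of all genes.

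**Figure D5:**
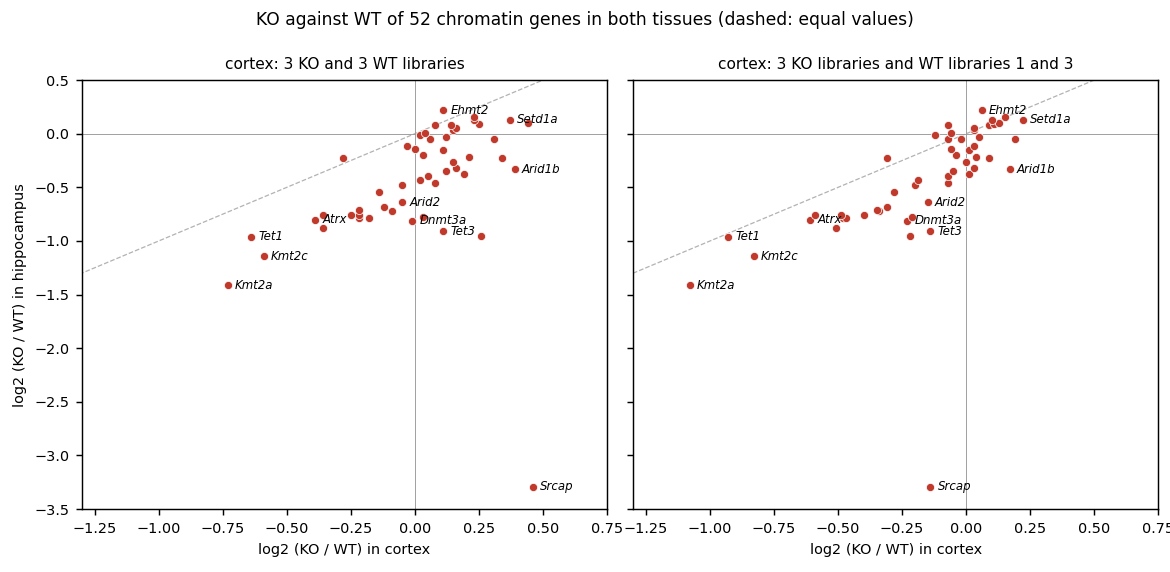
Log2 fold change of KO over WT in hippocampus (y axis) against cortex (x axis) for the 52 chromatin genes, with all cortex libraries (left) and without WT library 2 (right), and a dashed line of equal values. In the left panel 49 of the 52 genes lie below the line, and Srcap, at -3.29 in hippocampus, stands apart in both panels. The share of all genes below the line was not computed.

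The effect of the genotype differed between the tissues for 4 of the 52 genes, all lower in hippocampus, where 2.05% of 21282 genes were called lower and 0.963% higher (3.02% either way). The test was the genotype by tissue interaction of a single limma model of the 12 libraries. Tet3 was at -0.91 in hippocampus and 0.11 in cortex, a difference of -1.02 ± 0.22 (adjusted p = 0.0373), Dnmt3a differed by -0.81 ± 0.19 (adjusted p = 0.0474) and Arid2 by -0.58 ± 0.12 (adjusted p = 0.0267). In cortex Dnmt3a had 8633, 8657 and 8731 in KO libraries, against 10165, 6378 and 10202 in WT libraries, so its KO values lie between those of the WT libraries. The Srcap row differed by -3.75 ± 0.71 (adjusted p = 0.0212), but the sum with Gm42715 by -0.92 ± 0.25 (adjusted p = 0.0642), and by -0.64 ± 0.06 without cortex WT library 2 (adjusted p = 0.000229). In cortex that sum had 17729, 18195 and 17824 in KO libraries, against 18869, 10081 and 17584 in WT libraries. Setd2 came next, at -0.55 ± 0.14 (adjusted p = 0.0575). These calls depended on the libraries in the fit. Without cortex WT library 1, 17 of the 52 genes were called lower, 27 without library 2 and 10 without library 3. With any other library left out 0 to 2 were. Of all genes, 1005, 1313 and 692 were called lower without cortex WT libraries 1, 2 and 3. The numbers were 107 to 552 with any other library left out and 437 in the main fit. The difference was below 0 for 49 of the 52 genes, a count for which no share of all genes was computed. Without cortex WT library 2, 27 were called lower and 0 higher, beside 6.18% and 3.07% of all genes (9.24% in all). With the length trend also removed, 10 were called lower and 4 higher, beside 878 and 820 of 21255 genes. Other protein-coding genes over 12 kb had medians of -0.45, -0.47 and -0.45 in the KO hippocampus libraries, relative to WT. In the KO cortex libraries these were -0.17, -0.16 and -0.18, relative to WT libraries 1 and 3.

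The genes that work with these enzymes were drawn up in 12 lists of 194 genes, with a median exonic length of 5.28 kb. In hippocampus 47 of them rose, 35 fell and 112 were not called, with a median of 0.06, where 14.1% of all genes were called higher and 15.1% lower. In cortex 0 of 193 were called by limma or by edgeR. At an unadjusted p below 0.05 in limma, 13 were higher and 11 lower, and the share of all genes at that threshold was not computed. Without WT library 2, 21 were called higher and 27 lower, where 11% and 10.4% of all genes were. The counts for single lists are small and are read only as counts. Beside the H3K4 enzymes, 2 of 12 COMPASS subunits rose and 3 fell, among them Bod1l, a protein associated with the SET1 complexes, at -0.55 ± 0.05, and Hcfc1, a cofactor of the MLL and SET1 complexes, at -0.45 ± 0.06. Of 29 Polycomb partners 8 rose and 3 fell, with Asxl2, part of a deubiquitinase of histone H2A, at -0.97 ± 0.05 and the histone chaperone Rbbp7 at 0.36 ± 0.04. Of 10 NuRD partners 5 rose and 1 fell, with Mta1 at 0.28 ± 0.05 and Gatad2b at -0.31 ± 0.06. SWI/SNF partners gave 4 rises and 3 falls among 23, Dpf3 at -1.04 ± 0.09 and Pbrm1 at -0.63 ± 0.05.

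Trrap, the large scaffold of the TIP60-EP400 and SAGA complexes, had 11939, 12020 and 11613 in KO hippocampus, against 21257, 25592 and 23105 in WT hippocampus. Its fold change of -0.97 ± 0.07 was the largest of 26 INO80 and SRCAP partners, of which 8 rose and 3 fell, Nfrkb at -0.29 ± 0.04 among them. The ISWI partners, with a median exonic length of 12.2 kb, had the lowest median of the 12 lists, -0.38, with 5 of 10 lower and 1 higher, and Baz2b and Baz2a were at -0.79 ± 0.05 and -0.59 ± 0.05. Of 5 other acetyltransferases 2 rose and 0 fell, Kat7 at 0.21 ± 0.05 and Kat2a at 0.20 ± 0.05. Of 20 genes for histone deacetylases and their corepressors 4 rose and 2 fell, Hdac4 at -0.62 ± 0.07 and Ncor1 at -0.59 ± 0.06. Other histone methyltransferases gave 5 rises and 6 falls among 18, with Dot1l, the H3K79 methyltransferase, at -0.53 ± 0.04 and Nsd2 at -0.51 ± 0.04, and other demethylases 3 rises and 4 falls among 13, with Kdm7a at -0.92 ± 0.09 and Jmjd1c at -0.81 ± 0.06. Of 12 partners of DNA methylation 2 fell and 0 rose, with Mbd5 at -0.46 ± 0.07. Among 16 histone readers 5 rose and 3 fell, with Brd2 at 0.29 ± 0.04 and Cbx5, or HP1 alpha, at -0.55 ± 0.05.

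Marker levels also differed between the KO and WT groups of both tissues. In hippocampus 14.1% of all genes were called higher and 15.1% lower. The summed level of 5 nuclear long noncoding RNAs, of which 2 fell, was 415026 to 453551 in KO hippocampus, against 596003 to 641303 in WT hippocampus, and in cortex 563905 to 634182 in KO, against 692168 to 808918 in WT. The sum of 13 mitochondrial transcripts, of which 9 rose, was 3212870 to 3800893 in KO hippocampus, against 2608709 to 2715406 in WT hippocampus. In cortex it was 3021692 to 3287476 in KO, against 2792986 to 3669415 in WT, with WT library 2 the highest. Of 6 microglia markers 5 rose in hippocampus (sum 24224 to 25417 in KO, against 16358 to 19515 in WT), of 6 oligodendrocyte markers 4 (432041 to 501044 in KO, against 397612 to 402594 in WT), of 6 astrocyte markers 4 (156986 to 162425 in KO, against 126877 to 144473 in WT) and of 6 inhibitory neuron markers 4 (53854 to 55714 in KO, against 39313 to 46749 in WT). The 6 excitatory neuron markers, with 2 higher and 0 lower, summed to 734188 to 778516 in KO hippocampus, against 603979 to 714511 in WT. Other sums were lower: 6 markers of immature neurons and cycling cells, of which 3 fell and 1 rose, gave 1819 to 2200 in KO hippocampus, against 2651 to 2866 in WT hippocampus. The 6 markers of hippocampal fields, with 2 called each way, gave 82933 to 86342 in KO hippocampus, against 91175 to 106625 in WT hippocampus, and the 6 of cortical layers, with 1 called each way, 16130 to 16710 in KO and 17986 to 18768 in WT. The 5 choroid plexus markers, with 0 called, summed to 8957 to 17887 in KO hippocampus, against 12277 to 346250 in WT hippocampus. In cortex 5 of 6 striatal markers rose, or 6 without WT library 2 (22768 to 36233 in KO, against 8776 to 10141 in WT). Without that library 6 of 6 oligodendrocyte, 5 of 6 excitatory and 5 of 6 inhibitory neuron markers also rose in cortex, and 1 inhibitory marker fell. Of the 5 nuclear RNAs 4 then fell and 0 rose, and of 6 astrocyte markers 1 fell and 0 rose. Of all genes 11% were then called higher and 10.4% lower in cortex. No marker of these lists was at 0 in all libraries of a tissue, and the part of any of them in the values of the chromatin genes was not tested.

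Of the gene models that share exon bases with the 52 genes, 31 were found, and 20 of these were tested in hippocampus. Gm42715 was the only one of them to rise, Gm37139 in Ehmt1 and Ccdc77 beside Kdm5a fell, and the others were not called. Dap3, whose exons touch those of Ash1l on the other strand, was at 0.14, Cers2 beside Setdb1 at 0.12, Rnf34 beside Kdm2b at 0.16, Srpk2 beside Kmt2e at 0.02 and the antisense model AC061963.1 of Kmt2a at 0.18, each not called. The noncoding model 1810026B05Rik, which shares 2628 exonic bases with Chd2 on the same strand, was at -0.04 ± 0.07. The sources used here do not state whether the counting used strand, so levels of these pairs are uncertain where exons overlap.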

How the data were processed

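RNA sequencing measured gene levels in 12 libraries, 3 in each of 4 groups. The submitters' processing notes name GRCm38 as the build and STAR, HTSeq and DESeq2 as tools, with no versions. The deposited tables hold a normalized signal per gene, one table per tissue: each value was a whole number of reads (tolerance 0.001) times a step between 0.902 and 1.07 for its library, so read counts were recovered from the deposited values, except that the steps of cortex WT libraries 1 and 2 lie too near 1 to be checked and their totals are estimates. Levels were compared within a tissue only, since the tables were scaled separately.

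Of 55487 rows 55227 matched the annotation used for lengths and overlaps. Genes averaging 10 or more normalized counts were tested with limma 3.58.1 in R 4.3.3 on log2(value + 1), with a prior variance that follows expression and Benjamini-Hochberg adjustment over all genes tested. Fold changes are on that log2(value + 1) scale. The difference between tissues is the interaction term of 1 fit over the 12 libraries. edgeR 4.0.16 (quasi-likelihood test) on the recovered reads was an alternative. The length trend was removed per library with a loess curve (span 0.3). Both the fit and the length correction were tested on simulated data. No pairing of KO with WT libraries by replicate number was detected within a tissue, though 3 libraries per group cannot exclude it. Pairing of cortex with hippocampus libraries was not examined, and the fit of the difference treats the 12 libraries as independent.

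The 52 genes, the partner and marker lists and the tests were chosen with earlier results of these data known. Genes named with values are, in hippocampus, the 8 lowest and the 8 highest fold changes and, in each role group, the smallest p and the fold change nearest 0; in cortex, the 3 smallest p; for the difference, the 5 smallest p; and in each partner list, up to 2 genes with the smallest p, of which 1 is not reported here. Other genes were named after their values were seen.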

Additional observations from a re-analysis of the deposited data

Results flagged for a closer look

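The effect of the genotype differed between hippocampus and cortex for 4 of the 52 genes, tested as the genotype by tissue interaction in limma with all 12 libraries, and each difference was negative. The Srcap row differed by -3.75 ± 0.71 (adjusted p = 0.0212), with a range of -4.13 to -2.88 and adjusted p from 0.00506 to 0.0642 over 23 alternatives, 18 of which called it. Summed with Gm42715 it differed by -0.92 ± 0.25 (adjusted p = 0.0642). Arid2 differed by -0.58 ± 0.12 (adjusted p = 0.0267), from -0.66 to -0.31 over 25 alternatives (adjusted p from 0.00374 to 0.0867), called in 16. It had 3260, 3156 and 3221 in KO cortex, against 3681, 2901 and 3474 in WT cortex, where the groups overlapped. Tet3 differed by -1.02 ± 0.22 (adjusted p = 0.0373), from -1.15 to -0.49 (adjusted p from 0.000115 to 0.0991), called in 13. In cortex it had 5459, 5728 and 5537 in KO, against 6116, 3611 and 6185 in WT. Dnmt3a differed by -0.81 ± 0.19 (adjusted p = 0.0474), from -0.92 to -0.31 (adjusted p from 2.82e-05 to 0.116), called in 13. In each of the 4 genes cortex WT library 2 was the lowest cortex library, and without it the differences were -3.14, -0.48, -0.76 and -0.58, all called.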

How the results depend on the processing

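The fall in hippocampus kept its direction and size under most settings: 24 to 35 of the 52 genes fell over 17 alternatives, the lowest with the length trend removed. Among all genes 2333 to 3922 were called lower over these alternatives. Of the single genes, Ezh1 lost its call in 9 of 17 alternatives and Chd9, Smarca2 and Arid1b in 5. With the length trend removed the median was -0.06, and the signs turned for 11 genes: Chd9 (0.41), Kdm5b (0.32), Kdm2b (0.24), Smarca2 (0.20), Setd5 (0.15), Kat6b (0.13), Kdm2a (0.08), Arid1a (0.06), Chd4 (0.05), Dnmt1 (0.02) and Kdm4b (-0.03). Ehmt1, near 0, was at -0.01 with TMM scaling and with edgeR, and between -0.02 and 0.04 with single libraries left out, as were Kdm2b between -0.05 and 0.04 and Smarca4 between -0.08 and 0.03. The median ran from -0.39 to -0.30 with single libraries left out. Of the 52 genes, 2 were called higher in hippocampus with TMM scaling and 4 with quantile normalization. The number was 3 with edgeR, a filter at a mean of 50, a pseudocount of 8 or the replicate block. It was 12 with the length trend removed and 1 to 5 with a library left out. Among all genes 3141 were called higher in the main fit, 3003 with TMM scaling and 4557 with quantile normalization. With edgeR, the filter at 50, the pseudocount of 8 and the replicate block 3021, 3259, 3187 and 2817 were. With the length trend removed 2544 were, and with a library left out 1323 to 3911. Quantile normalization moved the share of higher among all hippocampus calls to 60.7%, against 48.2%.

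In cortex 4 of the 52 genes were called higher and 5 lower with the length trend removed, beside 759 and 540 of 21945 genes. In the main fit 281 and 145 of all genes were. With TMM scaling, edgeR or quantile normalization 1 of the 52 was lower, beside 176, 176 and 120 of all genes. Without WT library 2 and with Srcap and Gm42715 summed 7 were higher and 22 lower, beside 2421 and 2275 of all genes. Without that library and with the length trend removed 13 were higher and 16 lower, beside 2335 and 2188. With single libraries left out 0 to 7 were higher and 0 to 22 lower, beside 10 to 2420 and 5 to 2273. For the difference between tissues, 9 of the 52 genes were called lower with TMM scaling or quantile normalization, beside 680 and 591 of all genes. The number was 11 with edgeR, 2 with no filter, 0 with one prior variance and 0 with the replicate block. Of all genes 866, 226, 147 and 67 were then called lower, and 437 in the main fit. Without cortex WT library 2 and with the Srcap sum 27 of the 52 were lower, beside 1315 of all genes. Without that library and with the length trend removed 10 were, beside 878. With a library left out 0 to 27 were, beside 107 to 1313. With the length trend removed 1 of the 52 was called higher, beside 414 of all genes. With cortex WT library 2 also left out 4 were, beside 820. The cause of these moves was not tested. With the replicate number as a block 33 genes fell in hippocampus and 3 rose, and 0 were called in cortex. Same-numbered KO and WT libraries of a tissue correlated by -0.178 to 0.136, and differently numbered ones by -0.159 to 0.201. No pairing by number was detected within a tissue, but with 3 libraries per group these values cannot exclude it. Whether same-numbered cortex and hippocampus libraries share an animal was not examined.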
